A study of Mus musculus with 6 samples.

Results

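MafA is a transcription factor of the large MAF family, and this report covers the places in MIN6 cells where MafA was found at the end of a gene without the histone mark H3K4me3. MIN6 is an established mouse insulinoma line that serves as a model of the beta cell. The members were selected on the measured peaks themselves: a MafA region joins overlapping peaks of both MafA libraries, overlaps no peak of either H3K4me3 library, and has its midpoint within 1 kb of either end of a RefSeq gene of GRCm38. Of 25894 MafA regions found in both replicates, 1199 met the rule. The other MafA regions were 3843 at gene ends with an H3K4me3 peak, 18067 unmarked regions away from gene ends and 2785 marked regions away from gene ends.

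The study used CUT&RUN, in which an antibody bound in permeabilised cells directs a nuclease to cut the DNA beside its target, and the released fragments are sequenced. All 6 libraries came from untreated MIN6 cells of one line, 500000 cells each, with no genotype or treatment differing between them. They fall into 3 groups of 2 replicates that differ in the antibody: endogenous MafA, H3K4me3 as the positive control and IgG as the negative control, whose files were not used here. The labels do not say whether the replicates were separate cultures, so the spread between them may be technical.

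In beta cells, as background, MafA binds the insulin promoters together with PDX1 and NEUROD1, and it belongs to the factors that mark mature, glucose-responsive cells. Large MAF proteins bind as dimers to MAF recognition elements, and these elements resemble the sites of the related AP-1 family. H3K4me3 is laid down at the start of genes whose promoters are active or poised, mostly at promoters rich in CpG.

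The MafA lists held 33013 and 42747 peaks and the H3K4me3 lists 16020 and 16904. Fold enrichment is the authors' value, read here as the scaled fragments at a summit over the background modelled there, with 1 added to each. Fragments are printed before scaling, so printed fragments over printed background do not give the fold. Whole fragments recovered from the fold enrichment and the p-value gave medians of 25 and 46 fragments at the summits of MafA replicates 1 and 2, so single regions rest on few fragments. H3K4me3 peaks within 1 kb of an end were found at 7 of 10 beta cell marker genes (Ins2, Iapp, Slc2a2, Pdx1, Nkx6-1, Mafa and Slc30a8), at 4 of 5 alpha cell markers, at 1 of 3 delta cell and 1 of 2 leukocyte markers, and at 0 of 5 acinar, 0 of 3 ductal and 0 of 3 fibroblast markers.

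Sequence was available for the promoters of a minority of these regions, as RefSeq promoter windows of GRCm38.p6 that run from 250 bases before to 50 bases after an annotated start. A member overlapped 314 such windows of 288 genes. Both MafA summits lay within the 250 bases before the start in 40 of them. The 4 strongest of these, by the mean rank of fold enrichment and counting a gene once, are shown to let the bound promoter be read. Capitals mark the MAF site TGCTGA, which is 1 arm of a full element, the AP-1 site TGACTCA, the E-box CAGATG and the core CTGCAGC of the insulin C1 element, on either strand. Each is written 5′ to 3′ in the direction of transcription.
Gm3693 (chr12:81228034-81228283, plus strand): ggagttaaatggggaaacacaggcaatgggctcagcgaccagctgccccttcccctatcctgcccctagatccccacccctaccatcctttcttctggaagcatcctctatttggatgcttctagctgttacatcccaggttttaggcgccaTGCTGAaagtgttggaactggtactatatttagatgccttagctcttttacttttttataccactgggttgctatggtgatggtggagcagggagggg
Gm39671 (chr11:29808615-29808864, plus strand): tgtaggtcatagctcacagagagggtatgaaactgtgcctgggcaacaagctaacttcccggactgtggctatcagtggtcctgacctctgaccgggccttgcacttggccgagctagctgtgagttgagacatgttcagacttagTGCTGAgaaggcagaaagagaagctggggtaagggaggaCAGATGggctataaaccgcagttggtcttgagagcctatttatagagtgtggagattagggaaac
Gm52685 (chr4:140069907-140070156, plus strand): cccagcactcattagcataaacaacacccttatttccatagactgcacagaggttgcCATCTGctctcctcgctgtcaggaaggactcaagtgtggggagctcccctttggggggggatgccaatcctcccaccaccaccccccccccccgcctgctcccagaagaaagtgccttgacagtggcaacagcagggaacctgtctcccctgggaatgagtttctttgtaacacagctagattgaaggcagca
Olfr982 (chr9:40074047-40074296, plus strand): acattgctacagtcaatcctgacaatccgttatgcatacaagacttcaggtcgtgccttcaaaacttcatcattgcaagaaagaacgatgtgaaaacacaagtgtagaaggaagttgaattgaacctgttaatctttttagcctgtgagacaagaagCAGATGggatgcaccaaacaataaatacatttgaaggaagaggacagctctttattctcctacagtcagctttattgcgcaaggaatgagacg
Gm3693 and Gm39671 hold the MAF site, and Gm39671, Gm52685 and Olfr982 hold the E-box or its reverse complement. Fold enrichment in replicates 1 and 2 was 20.3 and 22.9 at Gm3693, a predicted gene. It was 21.0 and 20.5 at Gm39671 and 14.8 and 15.7 at Gm52685, also predicted genes. At Olfr982, an odorant receptor gene, it was 14.4 and 13.7.

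The insulin gene Ins1 and the lens gene Crybb3 are shown because MafA and its relatives are known for their insulin and crystallin targets, and Gm33479 because its promoter alone among the 314 windows holds a pair of MAF sites facing each other across 1 or 2 bases, the layout of a full MAF recognition element. That pair is in capitals as 1 run. For Ins1 the bases before the annotated start are followed by a short stretch that begins 20 bases after it.
Ins1 before the start (chr19:52264047-52264296, plus strand): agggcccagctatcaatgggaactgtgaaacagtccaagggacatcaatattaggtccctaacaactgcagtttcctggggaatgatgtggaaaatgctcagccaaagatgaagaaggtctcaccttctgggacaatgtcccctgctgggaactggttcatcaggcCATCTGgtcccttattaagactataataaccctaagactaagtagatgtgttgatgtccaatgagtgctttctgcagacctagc
Ins1 after the start (chr19:52264317-52264344, plus strand): CTGCAGCttcagcccctctggcCATCTG
Crybb3 (chr5:113081585-113081834, minus strand): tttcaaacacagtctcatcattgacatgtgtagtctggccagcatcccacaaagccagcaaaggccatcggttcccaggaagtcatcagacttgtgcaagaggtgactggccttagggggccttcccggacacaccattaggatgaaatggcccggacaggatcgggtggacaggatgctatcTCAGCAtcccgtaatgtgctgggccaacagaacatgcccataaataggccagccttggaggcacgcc
Gm33479 (chr4:52958774-52959023, minus strand): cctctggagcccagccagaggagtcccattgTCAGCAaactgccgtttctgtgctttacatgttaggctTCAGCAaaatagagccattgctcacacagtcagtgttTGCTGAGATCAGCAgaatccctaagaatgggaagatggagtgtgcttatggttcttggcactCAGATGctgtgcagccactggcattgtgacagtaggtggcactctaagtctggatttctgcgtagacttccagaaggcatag
The Ins1 stretch after the start has the C1 core followed by an E-box, the kinds of site through which MafA and NEUROD1 are known to act on insulin genes. The MafA summits lay 155 and 142 bases after the annotated start in replicates 1 and 2, downstream of that stretch. Summits at Crybb3 lay 113 and 151 bases after the annotated start of the window shown, while its MAF site lies before that start. This start lies inside the gene, whose outer end was 899.5 bp from the midpoint of the region. Fold enrichment at Gm33479 was 3.33 and 8.502 in replicates 1 and 2, a rank of 741 among the 1199 regions. Over all 32817 promoter windows 4 held such a facing pair.

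The members spanned a wide range of strength. Median fold enrichment was 5.78 in replicate 1 (10th to 90th percentile 3.55 to 12.2) and 6.28 in replicate 2 (3.63 to 14.2). The lowest single values were 2.26 and 2.02, and the highest 45.1 and 46.7. A median member held 26 fragments at its summit in replicate 1 and 55 in replicate 2. Fold enrichment exceeded 10 in both libraries at 174 members (14.5%). Across members the replicates had a Spearman correlation of 0.763 for fold enrichment, given as a description because both libraries were cut by the same calling threshold. Summits of the replicates lay a median of 55 bp apart, and within 100 bp at 791 members (66.0%). Replicate 2 had the higher fold at 729 members (60.8%), a share close to the 61.6% of unmarked MafA regions away from gene ends.

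**Figure D1:**
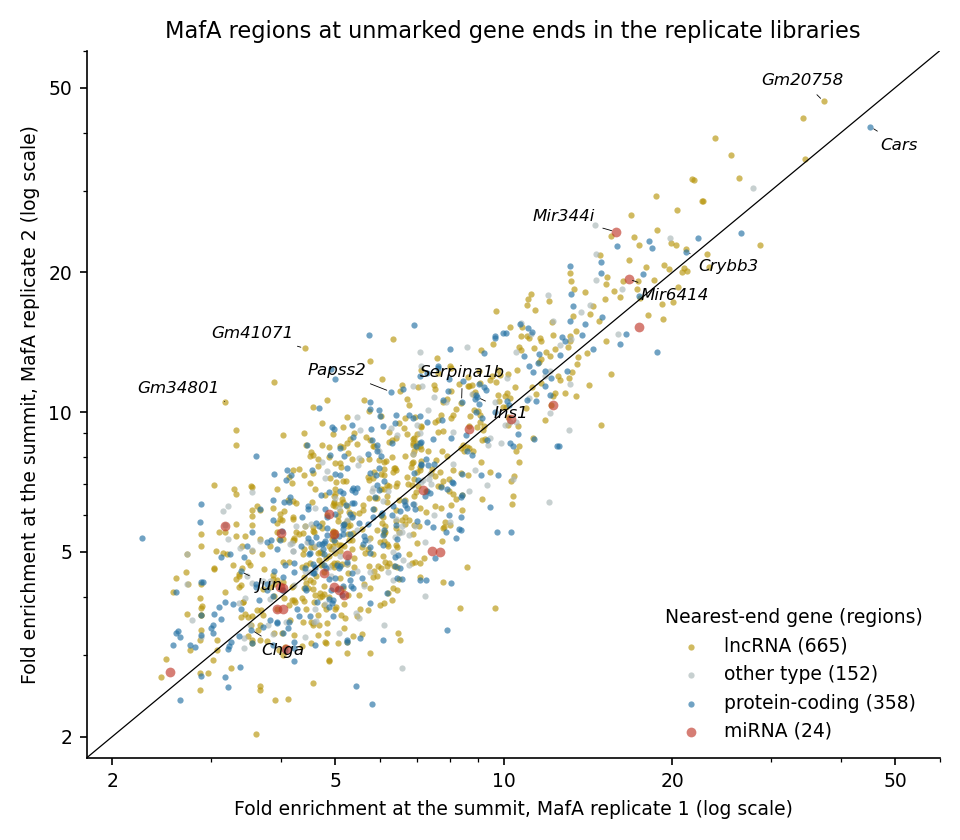
Fold enrichment at the summit of the 1199 MafA regions at unmarked gene ends in MafA replicate 1 (x axis) and replicate 2 (y axis), both on log scales, with 1 point for each region coloured by the type of the gene with the nearest end and a line of equality. Cars and Gm20758 stand at the top in both libraries, while Gm34801 and Gm41071 are more than 3 times as high in replicate 2.

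The strongest member lay just past the finish of Gm20758, a predicted lncRNA on chromosome 10 (chr10:111853006-111855596), with 37.2 and 46.7 in replicates 1 and 2. It stood 117 kb from the nearest H3K4me3 peak and 118 kb from the nearest protein-coding gene, Krr1. A second member lay at the start of the same gene (chr10:111874199-111875930), with 28.7 and 22.9, so both ends of Gm20758 were occupied. The next strongest lay inside Cars, which encodes the cysteinyl-tRNA synthetase (chr7:143556841-143558909), with 45.1 and 41.2 on 388 and 687 fragments. Its nearest H3K4me3 peak was 7.02 kb away. Because 3 regions shared the 10th place by mean rank, 11 are given. The other 9 lay at Gm12637 (34.1 and 42.9), Gm39282 (34.5 and 35.0), Gm34421 (23.8 and 38.9), Gm12031 (25.5 and 35.7), Gm35155 (26.3 and 31.9), the pseudogene Gm13690 (27.8 and 30.4), Gm4814 (21.9 and 31.6), Gm13709 (22.7 and 28.5) and Gm52818 (21.7 and 31.7). Apart from Gm13690 these are lncRNAs, and their H3K4me3 peaks lay between 5.52 kb (Gm13709) and 785 kb (Gm12637) away. The summits lay 31 bp apart at Gm12031, 110 bp apart at Gm52818 and closer than at Gm12031 in the rest.

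Among members nearest to a protein-coding gene, the 20 strongest were listed after their values were seen. Behind Cars came Chd7, a chromatin remodeller (26.6 and 24.3), and Apba2, an adaptor protein of neuronal synapses (22.3 and 23.7). Crybb3, a structural protein of the lens, had 21.1 and 22.1 on 130 and 265 fragments. Its region had its midpoint inside the gene, 899.5 bp from the outer end on the start side, and lay 54.9 kb from an H3K4me3 peak. Aak1, a kinase of clathrin-mediated endocytosis, had 18.2 and 23.4 at its finish. Cdk1, the kinase that drives entry into mitosis, had 14.9 and 21.0 just past its finish, with summits 1 bp apart. A region that lay at an end of both Vgll4, a cofactor of TEAD factors, and Atg7, an autophagy enzyme, had 17.4 and 17.8. Mrln, which encodes the muscle micropeptide myoregulin, had 13.1 and 15.7 with summits at the same base. The others were Rufy2, Pxt1, Fam83g, Frmd4a, Lrrk1, Gpr160, Ube2h, Glrx, Ubap1l, P2ry13, Camk1 and Tcam1. Among these, P2ry13, an ADP receptor, was higher in replicate 1 (18.8 and 13.5), and Lrrk1, a protein kinase, was higher in replicate 2 (13.1 and 20.6).

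At the other end of the range, the lowest mean folds were at Gm34159 (2.44 and 2.68), Crocc2 (2.64 and 2.40) and Mir3086 (2.53 and 2.75). These rested on 22 and 49, 22 and 34, and 30 and 65 fragments. The libraries diverged most at Gm34801 (3.17 and 10.5), Gm41071 (4.41 and 13.7) and Gm33008 (3.88 and 11.6), all lncRNAs and all higher in replicate 2. At Gm41071 the summits lay 584 bp apart, so its values describe different positions. The widest members lay at n-TVaac1, a valine tRNA gene, at Gm31819 and at Gm32997. The summits of the Gm31819 region stood 1884 bp apart.

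Members differed little in fold from unmarked MafA regions away from gene ends. Median fold enrichment in those 18067 regions was 5.84 in replicate 1 and 6.39 in replicate 2, and the log2 ratio of the members' median to theirs was -0.014 and -0.024. Fragments leaned the other way, with medians of 25 and 50 against the members' 26 and 55, log2 ratios of 0.057 and 0.14. Peaks were 647 and 818 bp wide at members, against 654 and 837 bp away from gene ends. With 2 libraries the exact two-sided sign-flip permutation test cannot go below p = 0.5, which each of these comparisons gave, so none can be called.

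Against MafA regions at marked gene ends the members had higher fold enrichment and fewer fragments. The 3843 marked regions had median folds of 3.97 and 4.25, so the members' medians were 1.46 and 1.48 times as high in replicates 1 and 2. Their median fragments were 57 and 130, and the members' 26 and 55 were 0.456 and 0.423 times that. Fold enrichment divides by the modelled background, which was 14.2 and 23 at marked ends and 3.51 and 5.48 at members. Fold exceeded 10 in replicate 1 at 16.8% of members and 4.55% of marked regions. Each direction was the same in both libraries (exact sign-flip permutation p = 0.5, the smallest 2 libraries allow). Whether members hold more or less MafA than marked gene ends cannot be told apart from the difference in background.

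**Figure D2:**
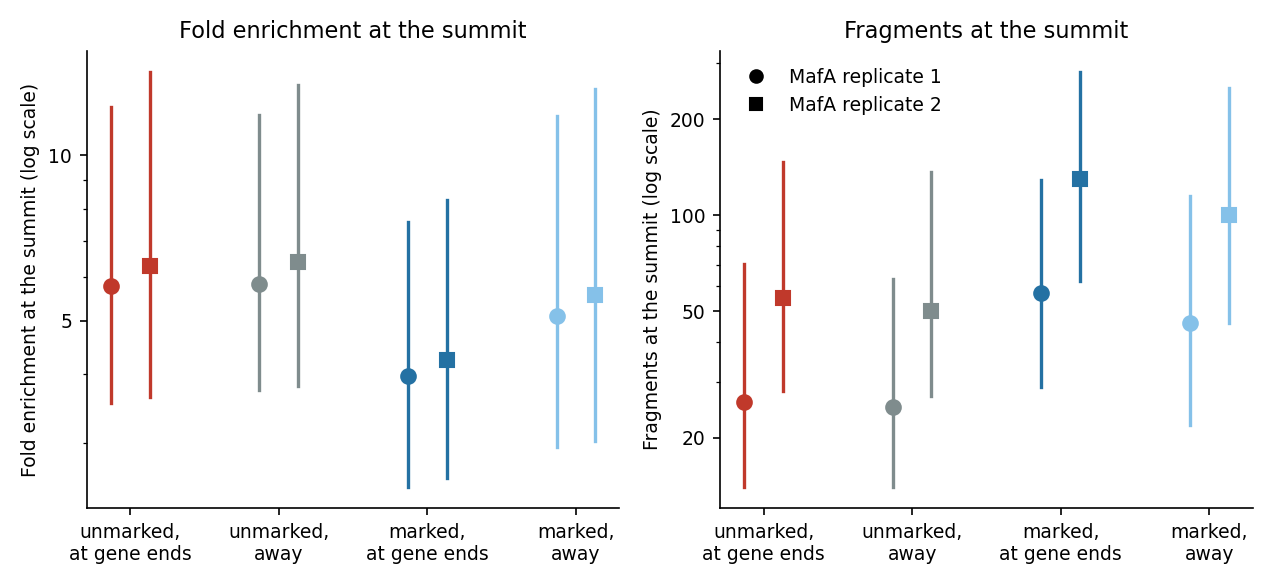
Fold enrichment (left) and recovered fragments (right) at the summits of 4 classes of MafA regions, on log scales, with the median as a symbol and the 10th to 90th percentile as a line for each MafA library. Unmarked regions at gene ends have medians of 5.78 and 6.28 for fold and 26 and 55 for fragments, close to unmarked regions elsewhere, and lie above marked gene ends in fold but below them in fragments.

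The genes at these regions were mostly noncoding. By the gene whose end lay nearest, 665 members (55.5%, 95% Wilson interval 52.6 to 58.3%) were at a lncRNA, 358 (29.9%, 27.3 to 32.5%) at a protein-coding gene, 112 (9.34%) at a pseudogene and 24 at a miRNA gene. There were also 22 at snRNA, 12 at snoRNA and 3 at tRNA genes. At marked gene ends 80.8% of MafA regions were nearest a protein-coding gene and 15.3% a lncRNA, and in the gene table these types make up 43.8% and 25.5%. Counted by genes, 1227 of 49980 genes had an end within 1 kb of a member's midpoint, a background of 2.45%. The share was 5.17% of lncRNA genes (658), 1.77% of protein-coding genes (388), 1.06% of pseudogenes (112) and 2.28% of miRNA genes (28). The rule itself removes marked ends, and an H3K4me3 peak lay within 1 kb of a start of 59.5% of protein-coding genes with a known strand, so a low protein-coding share is partly built in. These intervals cover counting error only.

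**Figure D3:**
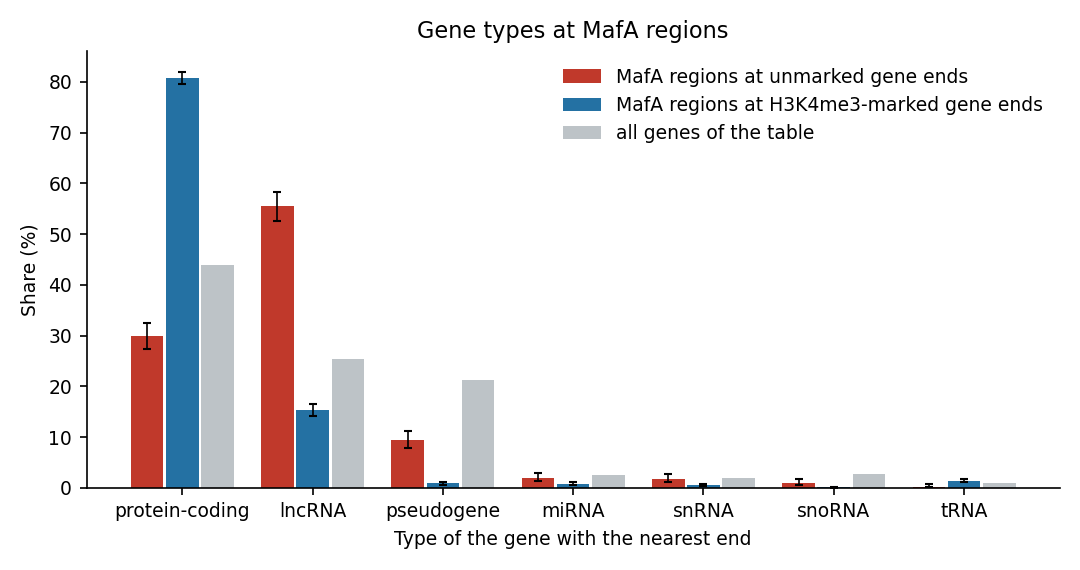
Share of MafA regions by the type of the gene with the nearest end, for unmarked and H3K4me3-marked gene ends, beside the make-up of the gene table, as bars from 0 with 95% Wilson intervals for the regions. Unmarked gene ends are 55.5% lncRNA and 29.9% protein-coding, and marked gene ends 15.3% and 80.8%.

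No test was made between gene types. Median fold in replicates 1 and 2 was 5.86 and 6.48 at lncRNAs, 5.64 and 6.14 at protein-coding genes, 6.25 and 6.22 at pseudogenes and 5.02 and 5.01 at miRNA genes. Members over 10-fold in both libraries made up 15.9% of those at lncRNAs and 12.0% of those at protein-coding genes. Among lncRNA members, 193 of 665 (29.0%) lay more than 50 kb from any protein-coding gene body, 201 (30.2%) lay inside one and 85 (12.8%) lay within 10 kb outside one. Over all members, 450 (37.5%) had their midpoint inside a protein-coding gene and 234 (19.5%) lay more than 50 kb from one. A median of 33.5 kb separated a member from the nearest H3K4me3 peak, against 52.7 kb for unmarked MafA regions away from gene ends. Of the 1199 members, 43 had an H3K4me3 peak within 1 kb, 944 had none within 10 kb and 249 none within 100 kb. Of the 18067 unmarked MafA regions away from gene ends, the same counts were 177, 15523 and 6011. The rule itself excludes overlap with a peak.

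The regions lay at both ends of genes in like numbers. Strand was known for the nearest-end gene of 807 members, of which 391 lay at the gene's start (48.5%, 95% Wilson interval 45.02 to 51.90%) and 416 at its finish. At marked gene ends 94.2% of MafA regions lay at the start. H3K4me3 is a mark of gene starts and the rule selects on it, so that difference is built in. The gene types leaned in opposite directions, since 301 of 514 lncRNA members (58.6%, 54.3 to 62.7%) lay at the start but only 90 of 293 protein-coding members (30.7%, 25.7 to 36.2%). The rule drops marked ends, and an H3K4me3 peak lay within 1 kb of a start of 59.5% of protein-coding genes with a strand. The low protein-coding share at starts is therefore partly built in, and the difference between gene types was not tested. Strength was alike at both ends, with median folds of 5.82 and 6.57 at starts and 5.77 and 6.29 at finishes. Of the 807 members, 4.96% had their midpoint within 100 bp before the start, the fullest bin around starts, and no 100-bp bin around finishes held more than 3.97%.

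**Figure D4:**
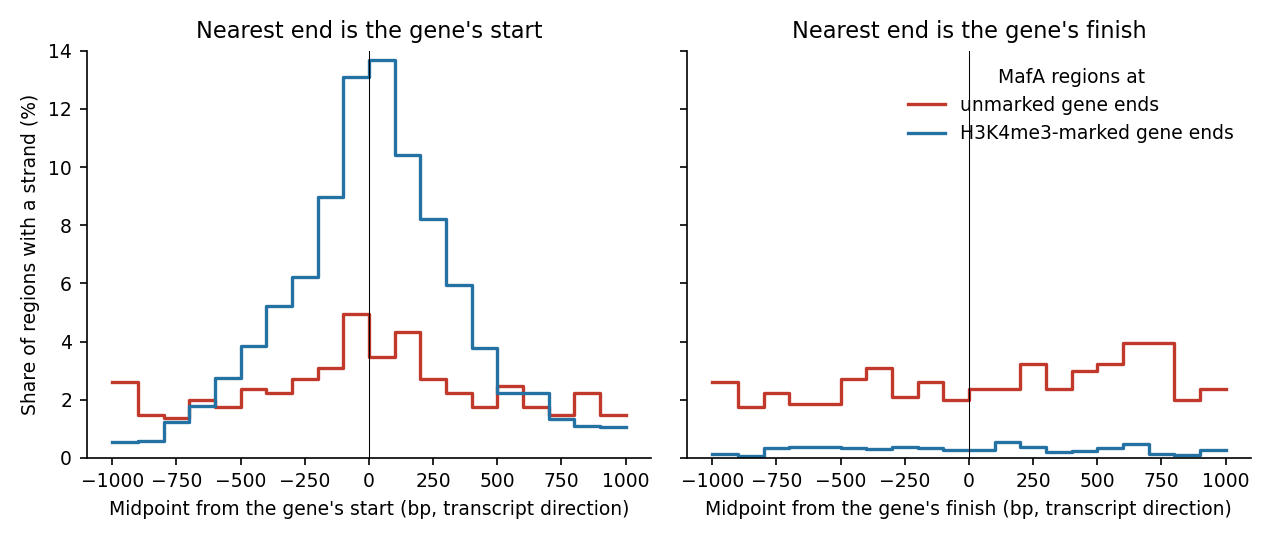
Distance from the midpoint of a MafA region to the start (left) or finish (right) of the gene with the nearest end, in the direction of transcription in 100-bp bins, as a share of the regions whose gene has a strand. Regions at marked gene ends pile up at the start with 13.1% and 13.7% in the bins on either side of it, and regions at unmarked gene ends are spread over both ends.

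Protein-coding genes with a member fell into 2 kinds. At 222 genes a member lay at the finish, and 163 of these (73.4%) had an H3K4me3 peak within 1 kb of a start, against 59.5% of all 17492 protein-coding genes with a strand. A marked MafA region also lay within 1 kb of the start at 72 of the 222 (32.4%), against 19.7% of all such genes. Examples with a marked start and a member at the finish were Papss2, Klf4, Jun, Chga, Kcnd3 and Glrx. At 98 genes a member lay at the start, and 22 of these (22.4%) had an H3K4me3 peak within 1 kb of a start, a low share that the rule builds in. Examples with an unmarked start were Crybb3, Serpina1b, Tph2 and Olfr982.

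Few of the members lay at genes tied to the beta cell. Of 60 beta cell genes in the table, 4 had a member (6.67%, beside the 2.45% of all genes), with a median mean fold of 6.34 beside 6.04 for all members, and 3 of them are described here. Ins1, which encodes one of the mouse insulins, had a region that spanned the whole gene (chr19:52263270-52266620), with fold enrichment of 8.94 and 10.8 on 77 and 172 fragments. The nearest H3K4me3 peak lay 770 kb away. Ins1 has a close copy in Ins2, and how reads that match both were placed is not given in the sources used here. That region ranked 216 among the 1199 and above 83.6% of all MafA regions. At Papss2, which makes the sulfate donor PAPS, fold was 6.28 and 11.1 past the finish, on 19 and 61 fragments. Chga, which encodes the secretory granule protein chromogranin A, had 3.54 and 3.40 on 14 and 26 fragments, among the weakest.

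Other lists had 1 or 2 members each or none. Of 19 crystallin genes 1 had a member, Crybb3. Of 23 AP-1 and immediate early genes 2 had one, both past the finish and both weak: Jun with 3.39 and 4.54, where an H3K4me3 peak lay 819 bp away, and Klf4 with 4.14 and 3.53. Of 38 genes of liver and plasma proteins 1 had one, Serpina1b, an alpha-1-antitrypsin gene (8.405 and 10.5). Of 30 neuronal and glial genes 1 had one, Tph2, the serotonin-making enzyme of neurons (5.14 and 4.04). None of 25 other islet hormones and peptides, 20 MAF and CNC factors, 24 genes disallowed in beta cells, 29 muscle, 30 blood and immune, 20 germ line or 20 housekeeping genes had a member. A list of 30 genes would hold fewer than 1 at the background of 2.45%, so a count of 0 in lists this short carries little information.

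Gene families were taken from the symbols, and their shares are read beside the 2.45% of all genes and the 1.77% of protein-coding genes. Members lay at 9 of 399 solute carriers (2.26%), a share near those backgrounds, of which Slc6a19os is an antisense lncRNA. The strongest of these were Slc5a12, a lactate transporter (11.8 and 12.3), and Slc38a5, a glutamine transporter (11.3 and 8.76). Of 98 potassium channel genes 5 had one (5.10%): Kcnd3 (13.8 and 14.6), Kcnv2 (7.004 and 5.82), Kcng3, Kcnj13 and Kcng4. Of 63 calcium, sodium and TRP channel genes 2 had one: Cacna1g, a T-type calcium channel (10.7 and 15.5), and Cacna1s, the calcium channel of skeletal muscle (6.91 and 7.37). Both P2ry12 and P2ry13, neighbouring ADP receptor genes, had their own member, with 5.15 and 5.47 at P2ry12. Only 3 of 1428 olfactory receptor genes (0.210%) and 1 of 645 vomeronasal receptor genes had one, and none of 43 taste receptor, 114 keratin, 83 defensin, 171 interleukin, chemokine and interferon or 43 Hox genes.

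Predicted genes, with symbols that begin with Gm, made up 664 of the 1227 genes at members (54.1%) and 43.6% of the whole table. A member lay at 3.05% of the 21795 such genes and at 4.22% of 2300 Riken clones (97), beside 2.45% of all genes. Among ribosomal protein symbols 7 of 407 had a member (1.72%), below the 2.45% of all genes. Of those 7, 6 are copies named as pseudogenes, led by Rpl21-ps7 (14.6 and 21.8) and Rps18-ps4 (13.1 and 11.8). How many of the 407 are such copies was not counted, so 6 of 7 cannot be read as an excess. Pseudogenes, small RNA genes and receptor families have near-identical copies, and how the authors placed reads that match several copies is not given in the sources used here. The values at such genes are therefore uncertain. In all, 32 genes had 2 or more members. After Gm20758 the 4 with the highest mean fold were Gm51696, Gm52292, Gm40381 and Gm33782. Each had a member nearest its start and another nearest its finish. At Gm51696 the member nearest the start had 22.6 and 28.5. The other had 2.88 and 4.26, with its midpoint well inside the gene, 603 bp from the finish. At Gm40381 the finish had 20.8 and 20.02 and the start 5.57 and 5.13, so the ends differed by more than the libraries did.

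Ends of more than 1 gene lay within 1 kb of 58 members (4.84%). The strongest lay between 4933417E11Rik and Gm5528 (18.8 and 24.6) and at Vgll4 and Atg7. Others lay at Cct5, a chaperonin subunit gene, and Cmbl (11.0 and 15.1), and at Idh3a, a subunit of mitochondrial isocitrate dehydrogenase, and Acsbg1 (9.22 and 13.4). The regions nearest to the 1-kb limit are given as examples, and strength across the limit was not compared. Just inside it lay the regions at Ubxn10 (1000 bp, 4.88 and 4.37), Gm30143 (997.5 bp, 5.86 and 8.44) and Gm33041 (997 bp, 6.42 and 6.16). Just outside lay those at Gm33577 (8.83 and 11.8), Kcnh7 (1002.5 bp, 5.47 and 3.61) and Gm41427 (1003 bp, 4.10 and 3.21).

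MicroRNA genes were described apart because they are short and their products can be printed. Members lay at 28 miRNA genes in 26 regions, and all were listed after their values were seen. The most frequent family was Mir344, a cluster on chromosome 7 whose 13 genes span 402 kb (chr7:61683124-62085310). Within that span lay 13 MafA regions and 2 H3K4me3 peaks, and 5 of the MafA regions were members, each at its own miRNA gene. Mature sequences from RefSeq (GRCm38.p6) are shown with the seed, bases 2 to 8, in capitals, since the seed groups them.
Mir344, miR-344-5p: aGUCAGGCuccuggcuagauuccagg
Mir344c, miR-344c-5p: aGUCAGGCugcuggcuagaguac
Mir344d-3, miR-344d-3-5p: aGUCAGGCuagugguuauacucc
Mir344i, miR-344i: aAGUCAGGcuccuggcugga
Mir344, miR-344-3p: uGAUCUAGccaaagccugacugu
Mir344c, miR-344c-3p: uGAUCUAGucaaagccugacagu
Mir344-2 has the same mature sequences as Mir344. The seed GUCAGGC was shared by 4 of the 42 mature miRNAs at members, counting Mir344 and Mir344-2 separately, and GAUCUAG by 3, all from this cluster. The seed of miR-344i, AGUCAGG, is the same run of bases moved by 1 position.

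The Mir344 regions fell into strong and weak ones. Fold enrichment was 15.8 and 24.4 at Mir344i (chr7:62084812-62086271) and 17.4 and 15.3 at Mir344 (chr7:61876558-61879055). It was 4.97 and 5.45 at Mir344d-3, 4.03 and 4.17 at Mir344-2 and 3.99 and 4.20 at Mir344c, so the strong and the weak ones were apart in both libraries, though they were divided after seeing these values. The strong ones rested on 56 and 151 fragments (Mir344i) and 86 and 131 fragments (Mir344). The nearest protein-coding gene body to Mir344i was Ndn, 263 kb away, and the other 4 regions lay farther from any.

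Outside the cluster the strongest miRNA members lay at Mir6414 (16.7 and 19.3), Gm51288 (12.2 and 10.4) and Mir146 (10.3 and 9.64). Mir146 encodes miR-146a, a repressor of innate immune signalling. A single region (chr5:138165595-138166049) lay at Mir106b, Mir93 and Mir25, a cluster within Mcm7 known for its targets in the cell cycle, with 5.19 and 4.04 on 24 and 36 fragments and an H3K4me3 peak 3.05 kb away. Mir449c had 5.25 and 4.92, and Mir133c 4.77 and 4.50.
Mir6414, miR-6414: cUAAGUUCugagcugagucuug
Mir146, miR-146a-5p: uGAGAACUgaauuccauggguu
Mir106b, miR-106b-5p: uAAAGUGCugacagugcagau
Mir93, miR-93-5p: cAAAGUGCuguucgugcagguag
Mir25, miR-25-3p: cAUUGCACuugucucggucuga
miR-106b-5p and miR-93-5p share the seed AAAGUGC, and 7 mature miRNAs of the table have it. The other miRNA members ranged from 8.67 and 9.20 at Mir759 down to 2.53 and 2.75 at Mir3086.

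The promoter windows at members were poor in CpG, like unmarked promoters in general. The ratio of observed to expected CpG had a median of 0.263 (quartiles 0.157 to 0.380) over the 314 windows, against 0.789 (0.631 to 0.913) over 3511 windows at marked MafA regions. It was 0.209 over the 19192 windows without an H3K4me3 peak and 0.383 over all 32817. A ratio of at least 0.6 was found in 5.41% of windows at members and 78.6% at marked MafA regions. G and C made up a median of 48.3% of bases at members and 62.0% at marked regions. The Ins1 window shown above has no CpG at all, and those of Crybb3 and Mrln have 6 and 4.

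The MAF site was found in a larger share of windows at members than of all unmarked promoters, whose share lay below the members' interval. Windows of 1 gene can overlap and so are not independent. TGCTGA, on either strand, was present in 106 of 314 windows (33.8%, 95% Wilson interval 28.8 to 39.2%), in 23.2% of all windows without H3K4me3, in 17.7% of windows at marked MafA regions and in 19.5% of all windows. The longer TGCTGAC, which contains it, was present in 11.8% (8.67 to 15.8%), 5.63%, 5.55% and 4.67%. The AP-1 site TGACTCA, whose first letters can be the last of TGCTGAC, was present in 13.7% (10.3 to 17.9%), 6.78%, 3.28% and 5.20%. The E-box CAGATG was present in 31.8% (26.9 to 37.2%), 22.01%, 10.3% and 17.2%. Only 59 of the 314 windows belong to protein-coding genes. In these TGCTGA was present in 32.2% (21.7 to 44.9%), an interval that covers the 23.4% of unmarked protein-coding windows. The intervals there for AP-1 (5.87 to 22.5%) and the E-box (18.8 to 41.4%) also cover the unmarked shares of 6.88% and 20.2%. For TGCTGAC the interval (5.87 to 22.5%) lay just above the unmarked 5.68%. The TATA box TATAAA was present in 18.2%, near the 19.1% of unmarked promoters. The cyclic AMP response element, searched by its full palindrome, was present in 1.59% of windows at members, 0.7503% of unmarked promoters and 4.41% at marked MafA regions. The C1 core CTGCAGC, added after the data were seen, was present in 10.2% (7.31 to 14.0%), 8.11%, 11.5% and 9.63%, so its interval covers the share of all promoters. Where both summits lay in the window, TGCTGA was found in 21 of 54 (38.9%) and CAGATG in 23 of 54 (42.6%). A match is a description of the letters and not a binding site.

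**Figure D5:**
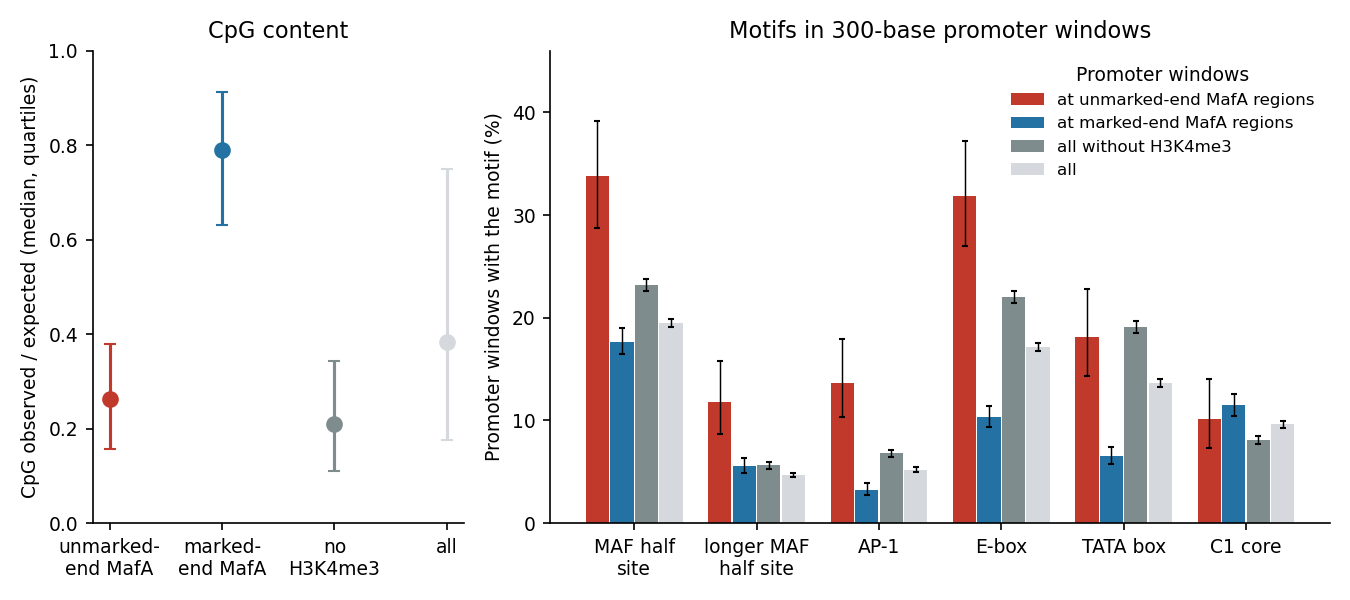
CpG observed over expected (left, median and quartiles) and the share of 300-base promoter windows with each motif (right, bars from 0 with 95% Wilson intervals), for windows at unmarked-end MafA regions, at marked-end MafA regions, without H3K4me3 and for all. Windows at unmarked-end regions have a CpG ratio of 0.263 and hold the MAF site TGCTGA, the leftmost motif, in 33.8% and the E-box in 31.8%.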

How the data were processed

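CUT&RUN peak lists of 2 MafA and 2 H3K4me3 libraries were analysed, from 150 bp paired reads per the labels. IgG files were not used here. Peaks were called with MACS2 on GRCm38 (mm10), per the submitters' processing notes. The MACS2 version, aligner, duplicate handling and control are not given in the sources used here. The fold values deposited by the authors are linear ratios of the pileup at a summit to its modelled background, and their significance values are −log10 of the p-value and q-value.

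Replicate peaks that shared at least 1 bp were joined, and the strongest peak of each library gave the values. Whole fragments were solved from fold and p-value within a relative tolerance of 0.0001, with scaling factors of 1 and 0.7464 for MafA replicates 1 and 2, for 100% of peaks. The method was tested on simulated data, where it returned the right fragments for 100% of 2992 peaks at a factor of 1. Gene ends, promoter windows and miRNA sequences came from RefSeq tables of GRCm38.p6 with 49980 genes, 27025 of them with a strand. Mature sequences were matched for 24 of the 28 miRNA genes at members.

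Members, gene lists and tests were chosen with earlier results of these data known. Named regions were the 10 strongest by mean rank with ties, those at listed genes (a few are not reported here), the 3 most divergent, widest and lowest, 3 on either side of the 1-kb limit, 5 genes with several members, 5 regions at several genes and the 2 strongest of each family. The 20 strongest at protein-coding genes and all miRNA members were added after seeing values, as were others named as examples of a count. Median ratios were compared over the 2 MafA libraries with an exact sign-flip permutation test, and shares have 95% Wilson intervals. The computation used matplotlib 3.10.9, scipy 1.17.1, pandas 2.3.3 and numpy 2.4.6 under Python 3.11.15. Alternatives varied the peaks, the window, the mark and the libraries.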

Additional observations from a re-analysis of the deposited data

How the results depend on the processing

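No paired analysis was possible because no test compares the labelled groups, whose replicate numbers would form the pairs. The ratios between region classes were each taken within a MafA library. The number of members, 1199, was 590 with equal numbers of the strongest peaks of every list, 645 within 500 bp and 2134 within 2 kb of a gene end, and 366 with protein-coding genes only. The number of genes at members, 1227, was 609, 654, 2199 and 388 under those settings, which by construction admit fewer or more peaks, positions or genes. Leaving out a MafA or H3K4me3 library gave 1221 to 1990 members and 1251 to 1995 genes, both highest without MafA replicate 1, since a single MafA list then sufficed. The fold ratio to unmarked MafA regions away from gene ends, -0.019 on the log2 scale, turned to 0.097 with fragments in place of fold and to 0.061 with equal numbers of peaks, and was -0.049 to -0.015 without a library. The fold ratio to marked MafA regions at gene ends, 0.55, turned to -1.19 with fragments, which are not divided by the background, and kept its direction under the other 13 settings. The width ratio to unmarked MafA regions away from gene ends, -0.024, turned to 0.0027 with equal numbers of peaks. The cause of the changes with equal numbers was not tested. The share of members at a protein-coding gene, 29.9%, was 34.0% within 2 kb and 30.0 to 32.9% without a library. The motif share in promoters at members, 33.8% for TGCTGA, was 30.6% (131 of 428) over windows with a start within 1 kb of a member's midpoint. The C1 core, a different motif chosen after seeing the data, had 10.2%. Of 111 named members under 13 settings (1443 cases), 198 were no longer members, 59 of them with protein-coding genes only, 49 at 500 bp and 38 with equal numbers of peaks. The last included Chga, Jun, Klf4, Tph2 and the weaker 3 of the Mir344 regions. Gm12637, Cmtr1, Egfros, Gm33008, Gm33041, Olfr1328 and Ubxn10 were lost without MafA replicate 2, and Gm32997 and Gm52292 without MafA replicate 1. Every member has a peak in each MafA list and overlaps no H3K4me3 peak. Such a loss therefore means that the midpoint of the remaining peak lay over 1 kb from a gene end, not that the peak was missing. The motif search in the centre of each region was not run, since it needs genome sequence. Over all members the summits held 14 and 28 fragments at the 10th percentile in MafA replicates 1 and 2, so values at such summits rest on few fragments. Whether depth limits the weak regions was not tested.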

Other observations

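MafA peaks called in a single library also lay at unmarked gene ends. They numbered 357 of the 6222 peaks called in replicate 1 alone and 787 of the 16741 called in replicate 2 alone. Among the MafA regions found in both replicates, 1199 of 25894 met the rule, and these counts were not compared by a test. The single-library peaks at unmarked gene ends had median folds of 4.11 and 3.94 and median summits of 14 and 29 fragments. Their highest folds were 9.94 and 11.6, below the highest of the members.

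The share of a chromosome's MafA regions that were members ranged from 2.58% on X (13 of 503) to 6.37% on chromosome 9 (88 of 1382). Members numbered 0.518 per 100 genes of the table on X and 3.54 on chromosome 9.

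Antisense transcripts named after a coding partner had members too. Parvaos had 16.1 and 17.7 in replicates 1 and 2, and its region lay within Parva, which encodes an adhesion protein. Egfros, within the growth factor receptor gene Egfr, had 10.6 and 7.82. Without MafA replicate 2 it was no longer a member, because the midpoint then lay over 1 kb from a gene end. Among genes with a member at the start, the serine protease gene Tmprss2 had 6.01 and 9.80 and the related Prss35 had 7.98 and 11.8. Both were higher in replicate 2, and their nearest H3K4me3 peaks lay 102 kb and 46.4 kb away.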
